A study of Mus musculus with 1152 samples.

Results

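The adrenomedullin receptor system was examined as 6 genes, chosen by name, of the 23168 genes measured in lymphatic endothelial cells (LECs) of the aged nasopharyngeal lymphatic plexus (NPLP). The members were the peptide hormone gene Adm, the receptor gene Calcrl, the receptor activity-modifying protein (RAMP) genes Ramp1, Ramp2 and Ramp3, and the scavenging receptor gene Ackr3. All 6 had a row, and all 6 had reads in at least 7 cells. The NPLP is a network of lymphatics in the nasopharyngeal mucosa, which the study examined as a route for cerebrospinal fluid. The cells came from nasopharyngeal mucosa of aged mice of strain c57bl/6, of both sexes and pooled, with no treatment named, and they were sorted as CD31+ PDPN+ cells into plate wells for Smart-seq3, a full-length single-cell RNA method. The cells analysed, 56.9% of those labelled, formed 1 group and, because no label named an animal, 1 sample without replicates. A single cell made up 0.152% of them. No comparison between conditions or ages was therefore made, and no p-value was computed.

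Adrenomedullin is a small vasoactive peptide that acts through CALCRL, a G protein-coupled receptor that reaches the cell surface and gains its ligand preference only together with a RAMP. CALCRL with RAMP2 or RAMP3 forms an adrenomedullin receptor, whereas CALCRL with RAMP1 forms the receptor for calcitonin gene-related peptide, and signalling runs mainly through the stimulatory G protein and cyclic AMP. ACKR3 is an atypical chemokine receptor that binds CXCL12 and also removes adrenomedullin, and mice that lack Adm, Calcrl or Ramp2 in development have oedema and poorly formed lymphatics.

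Adm and Ackr3, the ligand and scavenger genes whose levels differed most between cells, had the following promoter windows of 250 bases before the RefSeq gene start (GRCm38.p6). The Adm window lies at chr7:110627407-110627656 on the plus strand and the Ackr3 window at chr1:90203730-90203979 on the plus strand. Adm is a known target of hypoxia-inducible factors, which bind the letters ACGTG or GCGTG. Capitals mark each match to these letters, which reads CACGT or CACGC when the motif lies on the other strand.
Adm promoter: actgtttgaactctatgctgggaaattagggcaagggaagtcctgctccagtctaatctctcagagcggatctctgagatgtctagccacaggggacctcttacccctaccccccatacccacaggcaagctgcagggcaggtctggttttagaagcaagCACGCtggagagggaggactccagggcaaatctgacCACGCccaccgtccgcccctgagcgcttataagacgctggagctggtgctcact
Ackr3 promoter: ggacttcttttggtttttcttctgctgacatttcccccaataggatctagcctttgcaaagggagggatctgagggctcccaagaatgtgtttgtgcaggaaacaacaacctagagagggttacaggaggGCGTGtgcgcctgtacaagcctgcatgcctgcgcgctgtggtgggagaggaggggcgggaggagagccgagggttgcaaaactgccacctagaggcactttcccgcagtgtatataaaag
The Adm window held 2 matches, which began 90 and 54 bases before the start, and the Ackr3 window held 1, which began 120 bases before it. The Ramp3 window held 2 matches, and the windows of Calcrl and Ramp1 held none. ACGTG also lies within the E-box CACGTG, which 6.02% of windows contained. A match is a description of the sequence only: 38.6% of the 32851 promoter windows held at least 1 match on either strand, and 16.7% held at least 2.

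Depth differed widely between the cells, from 7046 to 10727631 recovered reads with a median of 148202. A gene was counted as detected in a cell at 1 read or more, and the bounds in parentheses after a share are exact (Clopper-Pearson) 95% intervals. These intervals cover counting error only, not differences between mice, and the reads are not independent molecules. The 8 LEC identity genes, Prox1 and Flt4 among them, were each detected in at least 87.7% of cells. Among markers of other cells, the mural genes were detected in at most 3.51% of cells, the epithelial genes in at most 0.610% (3 of 5 not analysed here), the haematopoietic genes in at most 9.60%, and the glial genes in at most 4.57%. The fibroblast gene Dcn was detected in 30.03% of cells and the other 4 fibroblast genes in at most 4.73%. Of 6 genes usual in blood endothelium, some of them also used by LECs, Kdr was detected in 98.8% of cells, Emcn in 96.2% and Aqp1 in 96.04%. Plvap was detected in 65.9%, Vwf in 10.4% and Flt1 in 2.44%. Whether blood endothelial cells contributed to these reads was not tested.

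The ligand gene was patchy. Adm (ENSMUSG00000030790.15, chr7:110627661-110629820, plus strand, GRCm38) was detected in 50.3% of cells (46.4 to 54.2%). On the deposited scale, the natural log of 1 plus reads per 10000 reads, its level ran from 0 through a median of 0.0031 to 4.41, with a mean of 0.51. In 49.7% of cells Adm had no read, and in 12 cells its natural log level was above 3. The 10% of cells with the highest Adm held 72.7% of its summed level per 10000 reads. Adm was therefore close to 0 in a typical cell and carried mainly by a minority of cells.

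The receptor gene was widespread and even. Calcrl (ENSMUSG00000059588.13, chr2:84330626-84425411, minus strand) was detected in 87.5% of cells (84.7 to 89.9%). Its natural log level ran from 0 through a median of 0.73 to 2.51, with a mean of 0.77. Most cells held some Calcrl and no cell held much of it: the top 10% of cells held 34.8% of its summed level. Against the trend of variance on mean level, drawn over the 5279 genes found in 30% of cells or more, the variance of Calcrl lay at the 3.16th percentile, so its level differed less between cells than that of most genes at a like level.

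Of the 3 RAMP genes, which set the ligand preference of CALCRL, Ramp2 was found in nearly every cell and the others in few. Ramp2 (ENSMUSG00000001240.13, chr11:101246028-101259546, plus strand) was detected in 98.3% of cells (97.02 to 99.2%), with a natural log level from 0 through a median of 2.18 to 3.66. Its mean natural log level, 2.06, lay at the 99.3th percentile of the 20981 genes with reads. Ramp1 (ENSMUSG00000034353.14, chr1:91179822-91225196, plus strand), which with CALCRL makes the receptor for calcitonin gene-related peptide, was detected in 7 cells, or 1.07% (0.430 to 2.19%). The 7 cells held between 1 and 12 reads of Ramp1, and its median level over all cells was 0. Ramp3 (ENSMUSG00000041046.7, chr11:6658521-6677475, plus strand) was detected in 15 cells, or 2.29% (1.29 to 3.74%), with 1 read in 4 of them and a highest natural log level of 1.47. Every cell with Ramp1 or Ramp3 also had reads of Ramp2 and of Calcrl. Markers of other cells were present in some of these few cells: 1 of the 7 Ramp1 cells and 2 of the 15 Ramp3 cells held a mural read, against 6.86% of all cells, and 2 and 4 of them held a fibroblast read, against 34.9% of all cells. A haematopoietic read was held by 2 of the 7 and 3 of the 15, against 18.8% of all cells, a glial read by 1 and 0, against 7.62%, and an epithelial read by 0 and 1, against 0.610%. Whether other cell types contributed to these reads was not tested. Exons of Ramp2 overlap those of Vps25 on the same strand. Vps25 was detected in 8.84% of cells at a mean of 0.0185 reads per 10000, against 9.34 for Ramp2. How reads in the shared exons were assigned is not known, so these counts cannot show how many Ramp2 reads came from Vps25. Exons of Ramp3 overlap an antisense gene, Gm11978, and whether the counting used strand is not given in the sources used here.

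The scavenger gene differed widely between cells. Ackr3 (ENSMUSG00000044337.5, chr1:90203980-90216751, plus strand) was detected in 81.6% of cells (78.4 to 84.5%). Its natural log level ran from 0 through a median of 0.996 to 4.26, with a mean of 1.24. Of all cells, 18.4% had no Ackr3 read, while 64 cells had a natural log level above 3. Its variance beyond the trend lay at the 99.6th percentile of the 5279 genes, against the 97.97th for Adm and the 91.7th for Ramp2.

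**Figure D1:**
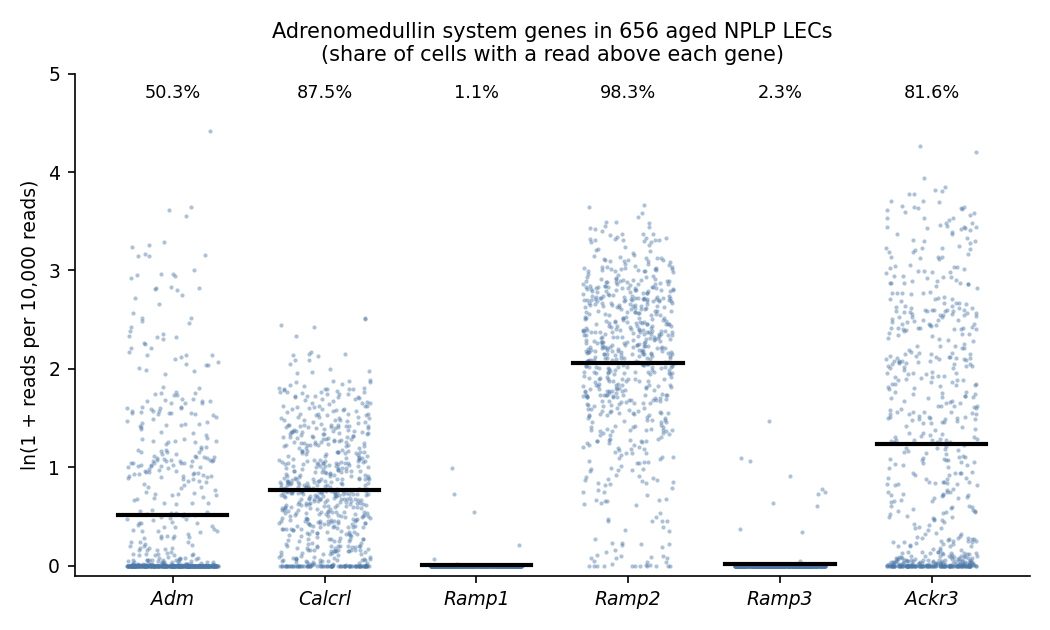
Natural log level (1 plus reads per 10000 reads) of each of the 6 genes, 1 point per cell, with a bar at the mean and the share of cells with a read above. Ramp2 lies high in nearly all cells, Calcrl in a narrow band, Adm and Ackr3 spread from 0 to above 4, and Ramp1 and Ramp3 stay at 0 except in 7 and 15 cells.

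Detection depended on depth. In the 25% of cells with the fewest reads (7046 to 37809), Calcrl was detected in 67.1% of cells, and in the deepest 25% in 96.95%. The mean natural log level of Calcrl was 0.76 in the shallowest 25% and 0.85 in the deepest. Ackr3 detection went from 72.6 to 95.7% and that of Adm from 43.9 to 60.4% between the same sets of cells, whereas Ramp2 went from 95.7 to 100%. To hold depth equal, cells were sampled down to 20000 reads each, which 86.6% of them reached. Detection was then 95.6% for Ramp2, 73.1% for Calcrl, 60.9% for Ackr3, 35.9% for Adm, 1.58% for Ramp3 and 0.528% for Ramp1. The order of the 6 genes by share of cells was the same with and without thinning.

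Levels were compared between genes per kilobase (kb) of merged exons. On this scale the mean level was 2.83 reads per 10000 per kb for Ramp2, 1.88 for Ackr3, 1.15 for Adm, 0.326 for Calcrl, 0.0164 for Ramp3 and 0.00192 for Ramp1. The mean level of Ramp2 per kb was 8.69 times that of Calcrl, and Ramp2 exceeded Calcrl per kb in 93.6% of cells. That ratio depended on the length used: it was 19.4 per kb of the longest transcript and 5.88 without length scaling. Without length scaling the mean level of Ramp2 was 9.34 reads per 10000, followed by Ackr3 at 6.31, Adm at 1.86 and Calcrl at 1.59. Over all cells the order of these 4 genes was thus kept. The mean natural log level, in which high cells weigh less, was 0.77 for Calcrl and 0.51 for Adm.

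The cell numbers in the labels were taken in 12 blocks of 96, the size of a plate, as a check on the order, although no label ties a block to a plate. The blocks held 18 to 83 cells each, with median depths from 52583 to 2450279.5 reads. Ramp2 was the highest gene per kb in 11 of 12 blocks, and in the remaining block, the one with 18 cells, Adm was the highest at 2.83 reads per 10000 per kb against 2.49 for Ramp2. Ackr3 lay above Adm per kb in 10 blocks, Adm above Calcrl in all 12, and Ramp1 and Ramp3 were the lowest in all 12. Without length scaling Calcrl lay above Adm in some blocks and below it in the others. In block 3, for example, the means were 1.64 reads per 10000 for Calcrl and 0.81 for Adm. Ramp3 lay above Ramp1 per kb in 7 blocks and Ramp1 above Ramp3 in 1, and 4 blocks had no read of either. The mean natural log level ranged over blocks from 0.68 to 0.84 for Calcrl, from 1.71 to 2.26 for Ramp2, from 0.86 to 1.63 for Ackr3 and from 0.25 to 1.14 for Adm. On this scale Calcrl had the smallest range of the 4 and Adm the widest in relation to its level, whereas per kb the highest block was 1.54 times the lowest for Ramp2 and 1.60 times for Calcrl.

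**Figure D2:**
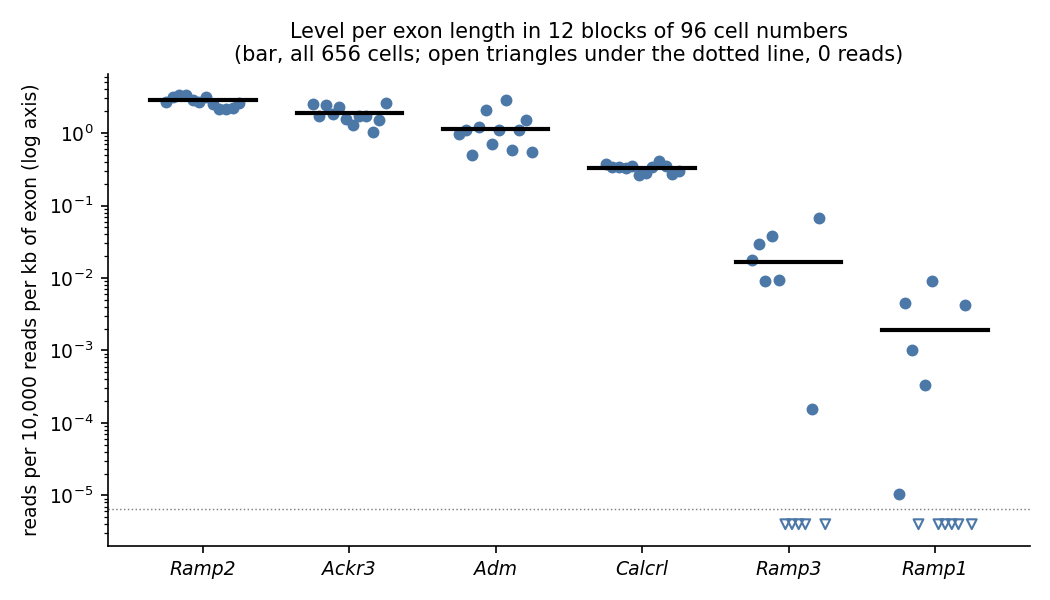
Mean level of each gene in reads per 10000 reads per kb of merged exons (log axis), 1 point per block of 96 cell numbers for 12 blocks, with a bar at the mean over all cells and open triangles for blocks without a read. Ramp1 and Ramp3 lie below the other genes in all 12 blocks.

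Because CALCRL needs a RAMP to work, the genes were next counted together in the same cell. Calcrl and Ramp2 were detected together in 86.4% of cells (83.6 to 88.96%), against 86.03% from the product of the separate shares. No cell with Calcrl had a RAMP other than Ramp2 without also having Ramp2: the cells with Calcrl and any RAMP were the same 86.4%. In 78 cells, or 11.9%, Ramp2 was detected without Calcrl, in 7 cells Calcrl was detected without a RAMP, and in 4 cells neither was detected. Per kb, Ramp2 made up 99.4% of the RAMP level over all cells and between 96.9 and 100% in the blocks. It was the most abundant RAMP per kb in 98.2% of cells, Ramp3 was so in 1 cell, and 11 cells held no RAMP read. At 20000 reads per cell, Calcrl and Ramp2 were detected together in 70.8% of cells (66.8 to 74.5%), against a product of 69.8%. In both counts the product lay within the interval of the joint share. This comparison could not show an excess, because the joint share cannot exceed the Calcrl share, 87.5% in all cells and 73.1% at 20000 reads. Both of these upper limits also lay within the intervals.

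The ligand and the scavenger were detected on top of this receptor pair in many cells. Adm, Calcrl and Ramp2 were detected together in 44.2% of cells (40.4 to 48.1%), and 42.2% of cells had the receptor pair without Adm. The pair together with Ackr3 was detected in 71.3% of cells (67.7 to 74.8%), and all 4 genes in 35.98% (32.3 to 39.8%). Over all cells, Adm and Ackr3 were both above 1 on the natural log scale in 50 cells, or 7.62% (5.71 to 9.93%), against a product of 11.8%. Adm alone was above 1 in 16.01% of cells and Ackr3 alone in 42.4%. These shares pool the clusters described below, which differed in both genes. By cluster the share with both above 1 ran from 3.95% to 11.4%, so the pooled product cannot show whether the 2 genes parted within a cluster.

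**Figure D3:**
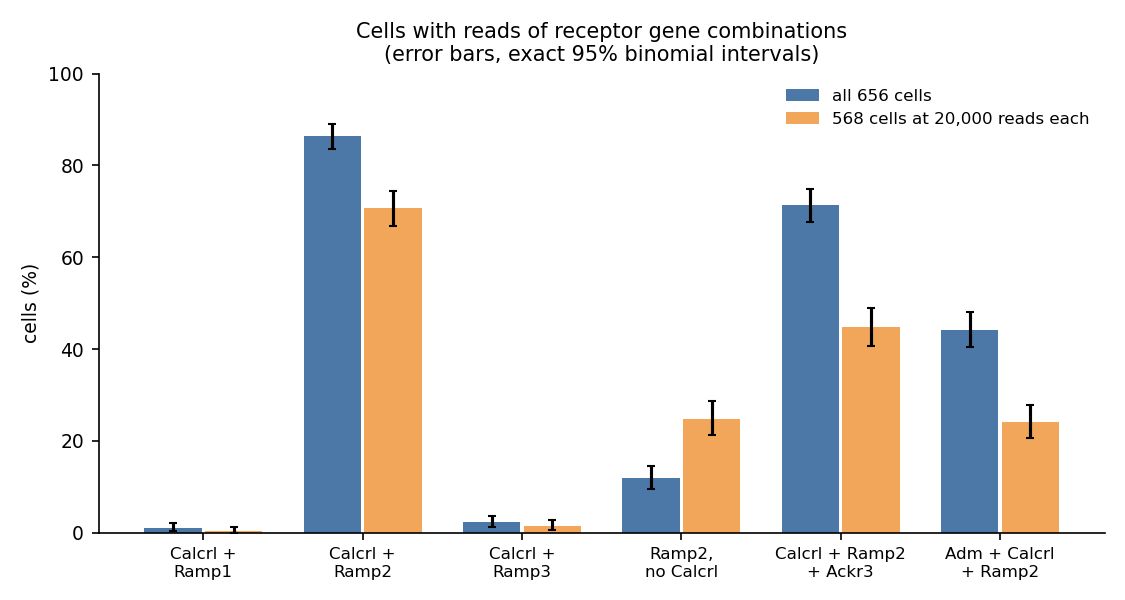
Share of cells with reads of each combination of genes, in all cells and in those sampled down to 20000 reads each, with exact 95% binomial intervals. Calcrl with Ramp2 reaches 86.4% and 70.8%, whereas Calcrl with Ramp1 or with Ramp3 stays at or below 2.29%.

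To see where in the plexus the members lay, cells were clustered on the most variable genes after the 6 members and the listed pathway genes had been taken out. The 5 clusters were named from marker genes. Cluster 1 was Ptx3+ capillary-like (35.5% of cells), cluster 2 precollecting-like (26.8%), cluster 3 Ptx3- capillary-like (15.9%) and cluster 4 upstream valve-like (11.6%). Cluster 5 (67 cells, 10.2%) stayed unnamed and was led by Pthlh, Anxa8 and Ptn. Its raised markers were Ptn, the downstream valve marker Clu, the blood endothelial marker Vwf and the fibroblast marker Dcn. Markers of other cell types were also raised in cluster 1 (Plvap, Aqp1 and Fcer1g) and in cluster 2 (Emcn). Whether other cell types contributed to these clusters was not tested. The names do not rest on every marker of a class. Lyve1 was not counted as raised in cluster 2, Ptn was not in cluster 3, and Itga9 and Foxc2 were not in cluster 4. Lyve1 was raised in clusters 1 and 3. The paper annotated its precollecting cells by Foxp2 and Lyve1, and its Ptx3- capillary cells by Fndc1 and Ptn. The clusters were still built from the same cells and from genes that vary with the members, so the values by cluster are descriptions without a test. A gene was compared if detected in at least 10% of cells, and was counted as past the limit at a mean level per 10000 reads at least 1.5-fold above or below that of all other cells, with 0.1 added to both. Adm, Calcrl and Ackr3 passed it in at least 1 cluster and Ramp2 did not: 3 of the 4 members compared, against 38.3% of 9666 genes. Ramp1 and Ramp3 were detected in too few cells to be compared.

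Ackr3 was the member that separated the clusters most. Its mean natural log level was 0.54 in Ptx3+ capillary-like cells, 1.03 in precollecting-like, 1.46 in upstream valve-like, 2.27 in unnamed and 2.33 in Ptx3- capillary-like cells. The medians were 0.085, 0.63, 1.48, 2.504 and 2.54 in the same order. The distributions overlapped, since cells without Ackr3 occurred in all 5 clusters, but the typical Ptx3+ capillary-like cell had almost none. Ackr3 was 2.79-fold higher in Ptx3- capillary-like cells than in all other cells, a cluster in which 4.87% of genes passed the limit upwards. It was 2.98-fold higher in the unnamed cluster (5.86% of genes) and 0.186-fold in Ptx3+ capillary-like cells (4.38% of genes passed downwards). In precollecting-like cells the ratio was 0.649 (6.04% downwards), and with no regression in the clustering it was 0.880. At 20000 reads per cell Ackr3 was detected in 38.02% (31.1 to 45.3%) of Ptx3+ capillary-like and in 97.7% (91.9 to 99.7%) of Ptx3- capillary-like cells. Ackr3 was lower in Ptx3+ capillary-like cells than in other cells in 12 of 12 blocks, and higher in Ptx3- capillary-like cells in 10 of 10 blocks that could be compared. Clusters accounted for 33.8% of the variance of the natural log level of Ackr3, against 10.2% for Adm, 7.68% for Calcrl, 1.27% for Ramp2 and a median of 0.887% over 9666 genes.

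Adm showed another order. Its mean natural log level was 0.78 in precollecting-like and 0.66 in Ptx3+ capillary-like cells, and 0.20, 0.17 and 0.17 in Ptx3- capillary-like, upstream valve-like and unnamed cells. In each of the last 3 clusters the median level was 0, and even in the first 2 it was at most 0.14. Adm was 2.11-fold higher in precollecting-like cells than in other cells (2.90% of genes passed upwards), in 12 of 12 blocks. The 1.55-fold excess in Ptx3+ capillary-like cells (5.75% upwards) was smaller, was present in 9 of 12 blocks, and lay below the limit, at 1.29 to 1.35-fold, under 5 of 12 other settings. In Ptx3- capillary-like cells Adm was at 0.308-fold (8.43% downwards), in upstream valve-like cells at 0.216-fold (10.1% downwards) and in unnamed cells at 0.187-fold (8.81% downwards). At 20000 reads per cell Adm was detected in 50.3% (42.3 to 58.3%) of precollecting-like and 45.8% (38.6 to 53.2%) of Ptx3+ capillary-like cells, but in 14.9% (8.20 to 24.2%) of Ptx3- capillary-like cells.

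The receptor genes differed less. The mean natural log level of Calcrl was 0.60 in precollecting-like, 0.72 in Ptx3+ capillary-like, 0.81 in Ptx3- capillary-like, 0.99 in upstream valve-like and 1.10 in unnamed cells. Calcrl was 1.63-fold higher in the unnamed cluster, 1.41-fold in upstream valve-like cells (below the limit, which 6.66% of genes passed upwards), where it was higher in 10 of 10 blocks, and 0.669-fold in precollecting-like cells, where it was lower in 11 of 12 blocks. The limit was passed in the unnamed cluster alone, and with 1 in place of 0.1 added per 10000 reads in none. Ramp2 ran from 1.99 to 2.29 in mean natural log level, and its ratios to other cells from 0.925 to 1.21. The pair was therefore present throughout: at 20000 reads per cell Calcrl and Ramp2 were detected together in 65.1% (57.9 to 71.8%) of Ptx3+ capillary-like and 64.2% (56.2 to 71.6%) of precollecting-like cells, and in 80.5%, 82.1% and 79.4% of Ptx3- capillary-like, upstream valve-like and unnamed cells.

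**Figure D4:**
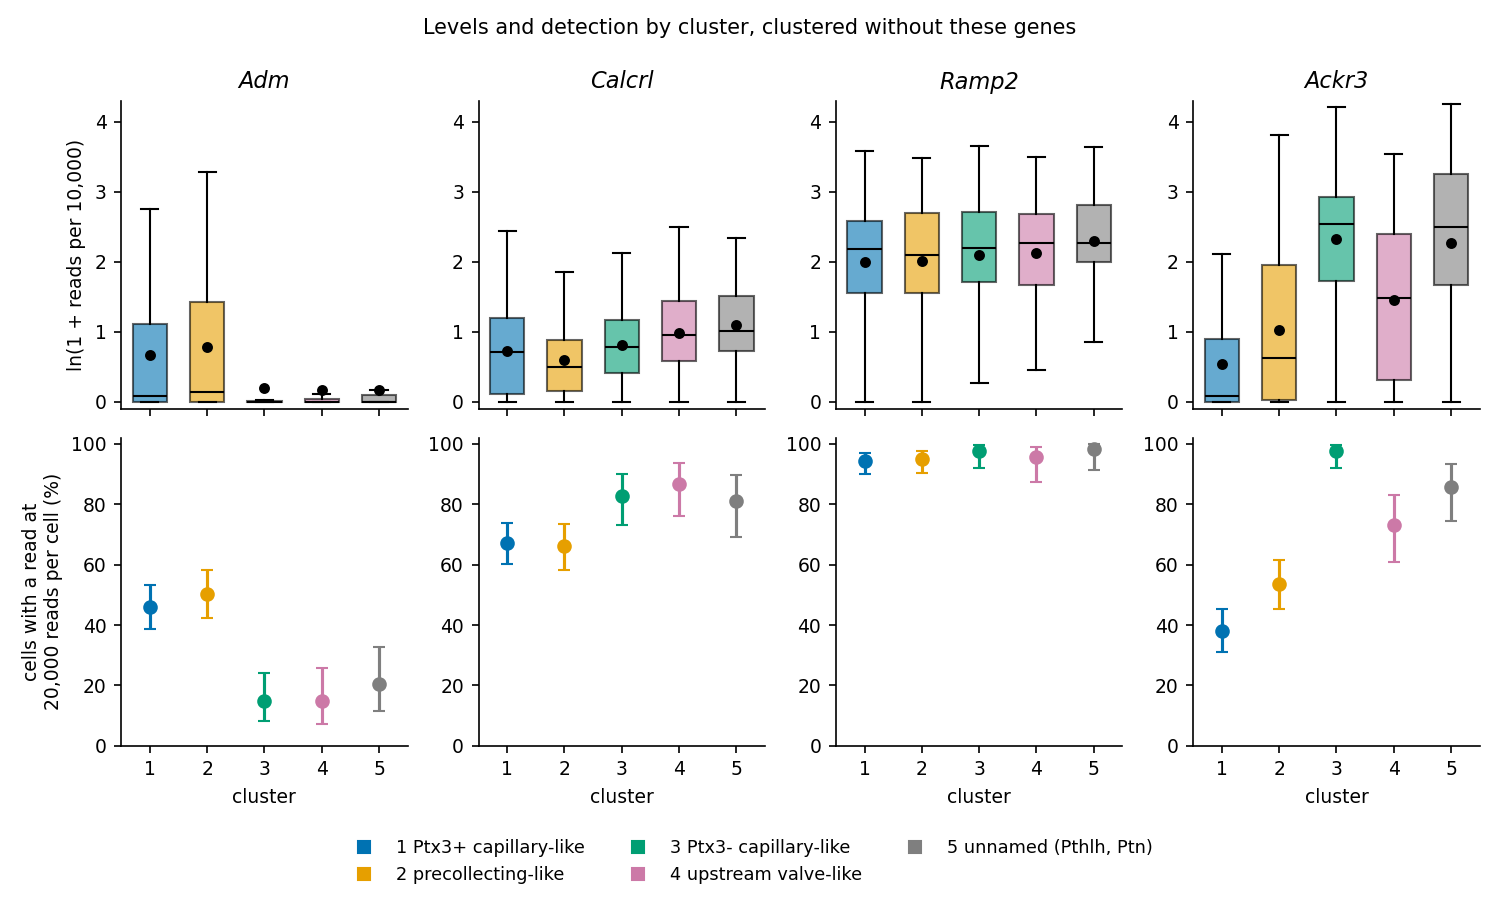
Natural log level (upper row; box, quartiles; line, median; whiskers, values within 1.5 times the box length; dot, mean) and share of cells with a read at 20000 reads per cell (lower row, with exact 95% binomial intervals) for Adm, Calcrl, Ramp2 and Ackr3 in 5 clusters. Ramp2 is level, Ackr3 detection runs from 38.02% in cluster 1 to 97.7% in cluster 3, and Adm detection is 45.8% and 50.3% in clusters 1 and 2 and at most 20.6% in the others.

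Ligand and scavenger levels per kb therefore changed places between clusters. In Ptx3+ capillary-like cells Adm per kb was 3.20 times Ackr3 per kb, and in precollecting-like cells 1.42 times. Without length scaling the order turned in precollecting-like cells, at 3.08 reads per 10000 for Adm against 4.49 for Ackr3, and was kept in Ptx3+ capillary-like cells, at 2.44 against 1.58. In Ptx3- capillary-like cells the same ratio was 0.0864, in upstream valve-like cells 0.118 and in unnamed cells 0.0391. Ackr3 per kb exceeded Ramp2 per kb in Ptx3- capillary-like cells, at 4.13 against 2.86 reads per 10000 per kb, and in unnamed cells, at 4.71 against 3.35. Per kb of the longest transcript this order turned, at 4.51 for Ackr3 against 6.40 for Ramp2 and at 5.15 against 7.48. Relative to the receptor gene, Ackr3 per kb was 1.56 times Calcrl per kb in Ptx3+ capillary-like cells and 12.6 times in Ptx3- capillary-like cells. Ackr3 without Adm above 1 on the natural log scale was seen in 85.6% (77.3 to 91.7%) of Ptx3- capillary-like cells, and Adm without Ackr3 above 1 in 0.962% of them. In Ptx3+ capillary-like cells the shares were 15.9% (11.4 to 21.2%) and 23.6% (18.3 to 29.6%). Median depth ran from 107457 to 186080.5 reads over the clusters and the median dissociation score from 0.51 to 0.82. The part of dissociation in these patterns was not tested. The thinned shares above hold depth equal.

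Across cells, the rank correlation of each pair of members was computed after the number of detected genes had been regressed out of the ranks (Spearman's rho over all cells, which share a pool and library preparation). The largest in size was between Adm and Ackr3, at -0.196, and it was -0.065 once cluster means were removed. The correlation was 0.161 between Calcrl and Ackr3, 0.115 between Calcrl and Ramp2 and -0.114 between Adm and Calcrl. These are weak values in sparse counts and are given as descriptions.

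Genes with a pattern most like each member were ranked by the same rho over the 5279 genes above. For Ackr3 the highest were Tagln2 (0.487), Igfbp5 (0.469), Pdlim3 (0.435), Vim (0.419) and Pcp4l1 (0.406), where 95% of genes lay between -0.139 and 0.167. The most opposed were Igfbp7 (-0.400) and Selenop (-0.354). With cluster means removed, rho was 0.311 for Tagln2, 0.343 for Igfbp5 and -0.209 for Igfbp7, so the likeness was also present inside clusters. Tagln2, Pdlim3 and Vim encode proteins of the actin or intermediate filament skeleton, and Igfbp5 and Igfbp7 encode secreted proteins of the same growth factor binding family.

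The other members had weaker partners. Adm was most like Bmp4 (0.243), Apoe (0.212), Clu (0.209), Trp53i11 (0.204) and H6pd (0.190), of which Bmp4 and Apoe had served as markers of the precollecting-like class and Clu as a marker of the downstream valve. The precollecting-like cluster itself also had raised levels of the downstream valve markers Gja4 and Clu, and at a clustering resolution of 1.5 Adm was highest in a downstream valve-like cluster. It was most opposed to S100a10 (-0.219) and Utrn (-0.197). Ramp2 was most like Plec (0.228), Cldn5 (0.228), which encodes a tight junction protein of endothelium, S100a10 (0.205), Elk3 (0.204) and Fxyd5 (0.194), and most opposed to Sbno2 (-0.196) and Hspa8 (-0.186). Calcrl was most like Plpp1 (0.210), Ssr3 (0.190), Abi3bp (0.188), Tmem109 (0.183) and Podxl (0.179), and Fau (-0.150) was among the genes most opposed to it. The middle 95% of genes lay between -0.095 and 0.108 for Adm, -0.097 and 0.115 for Ramp2, and -0.079 and 0.105 for Calcrl. S100a10 stood at opposite ends for Adm and Ramp2.

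Adm is a textbook hypoxia gene, so it was set against 15 other genes of that response. Ndrg1 (99.2% of cells) and Aldoa (97.3%) were the most widely detected of them and Car9, a carbonic anhydrase, the least (1.07%). For the 9 detected in at least 30% of cells, rho with Adm ran from -0.060 for Aldoa to 0.078 for Hif1a with a median of 0.022, against a median of 0.0029 over all genes. Of the 9, 6 (66.7%) lay above 0, against 52.5% of all genes. These are weak values in sparse counts, and whether hypoxia contributed to the Adm level was not tested. By cluster, Epas1, Slc2a1 and Egln3 were 1.64, 2.28 and 1.57-fold higher in the precollecting-like cells, where Adm was also highest in this clustering, though not under every setting. Others of the list were lower there within the limit, such as Vegfa (0.689-fold) and Hif1a (0.754-fold). Slc2a1 was at 0.504-fold in Ptx3+ capillary-like cells. In upstream valve-like cells, where Adm was at 0.216-fold, Pfkfb3 and Ldha were 2.44 and 1.51-fold higher and Epas1 was at 0.552-fold. In all, 7 of the 12 hypoxia genes compared passed the limit in some cluster, against 38.3% of all genes.

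Tissue dissociation induces immediate-early and heat shock genes, and these moved weakly with members. Of 27 such genes Hspa8 and Hsp90ab1 were detected in every cell and Cebpb in the fewest (23.5%), and 10 of 27 passed the cluster limit, against 38.3% of all genes. Over the 26 detected in at least 30% of cells the median rho was 0.069 with Adm and -0.096 with Ramp2. The medians over all genes were 0.0029 and 0.012. With Adm 24 of the 26 (92.3%) lay above 0, against 52.5% of all genes. With Ramp2 2 of them (7.69%) did so, against 59.7% of all genes. With the dissociation score used in the clustering, rho was 0.107 for Adm, -0.167 for Ramp2, -0.028 for Calcrl and 0.047 for Ackr3. Whether handling of the tissue contributed to the levels of Adm or Ramp2 was not tested.

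The genes around the receptor were read from lists of the same pathway. Calcr, the calcitonin receptor that also pairs with RAMPs, was detected in 0 cells (3 cells, the floor for a count of 0, would be 0.457%). Crcp, which encodes a receptor component protein, was detected in 37.8% (34.1 to 41.6%). Pam, the enzyme that amidates adrenomedullin to its active form, was detected in 53.4% (49.5 to 57.2%) of cells. Mme, a membrane peptidase that degrades the peptide, was detected in 0.457% (0.0944 to 1.33%). The other peptide genes of the family, Adm2, Calca, Calcb and Iapp, were not analysed here.

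Of 21 genes of cyclic AMP signalling, which lies downstream of the receptor, 5 were detected in at least 50% of cells, 12 in 10 to 50%, 3 in fewer and 1, Rapgef4, in none. The most widely detected were Prkar1a (97.3%), a regulatory subunit of protein kinase A, and Pde4b (93.9%), a phosphodiesterase that breaks cyclic AMP down. Of 17 compared, 8 passed the limit in some cluster, against 38.3% of all genes. Gnas, the stimulatory G protein subunit, was 1.54-fold higher in Ptx3+ capillary-like cells. It was at 0.604-fold in upstream valve-like cells, in which the Calcrl level was above that of other cells. Other genes of the list went the other way in upstream valve-like cells. Rap1a, Rapgef3, Prkacb and Pde4d were 1.64, 1.62, 1.56 and 1.55-fold higher there. Gnas transcripts share exons with other products of the same locus, which the counts do not separate. Among 8 genes of receptor desensitisation and sorting, the arrestin gene Arrb1 (87.8%) and the receptor kinase gene Grk5 (49.8%) were the most widely detected and Grk3 (0.610%) the least, and 3 of 6 compared passed the limit. Over all listed pathway genes left out of the clustering, which do not include the dissociation genes, 22 of 42 compared did so, against 38.3% of all genes.

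On the chemokine side of Ackr3, its ligand gene Cxcl12 was detected in 45.9% (42.02 to 49.8%) of cells. Cxcl12 was 2.02-fold higher in Ptx3+ capillary-like cells, the cluster with the least Ackr3, and at 0.309-fold in unnamed cells, the cluster with the highest mean Ackr3 per 10000 reads. The order was not simply opposite, since Cxcl12 was at 1.25-fold in Ptx3- capillary-like cells and at 0.265-fold in upstream valve-like cells. Cxcr4, the signalling receptor for CXCL12, was detected in 0.457% (0.0944 to 1.33%) of cells and Cxcr3 in 0.610% (0.166 to 1.55%). Of the other scavenging receptors, Gpr182 was detected in 82.3% and passed the limit in no cluster, Ackr2 in 71.95% with a level 2.16-fold higher in Ptx3- capillary-like cells, and Ackr4 in 11.7% with levels 3.27-fold higher in precollecting-like and 2.82-fold in unnamed cells. Ackr3, Ackr2 and Ackr4 thus each had their own order over the clusters, and of these 4 receptors Gpr182 was the one within the limit in all 5. The ligand gene Cxcl11 was not analysed here.

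**Figure D5:**
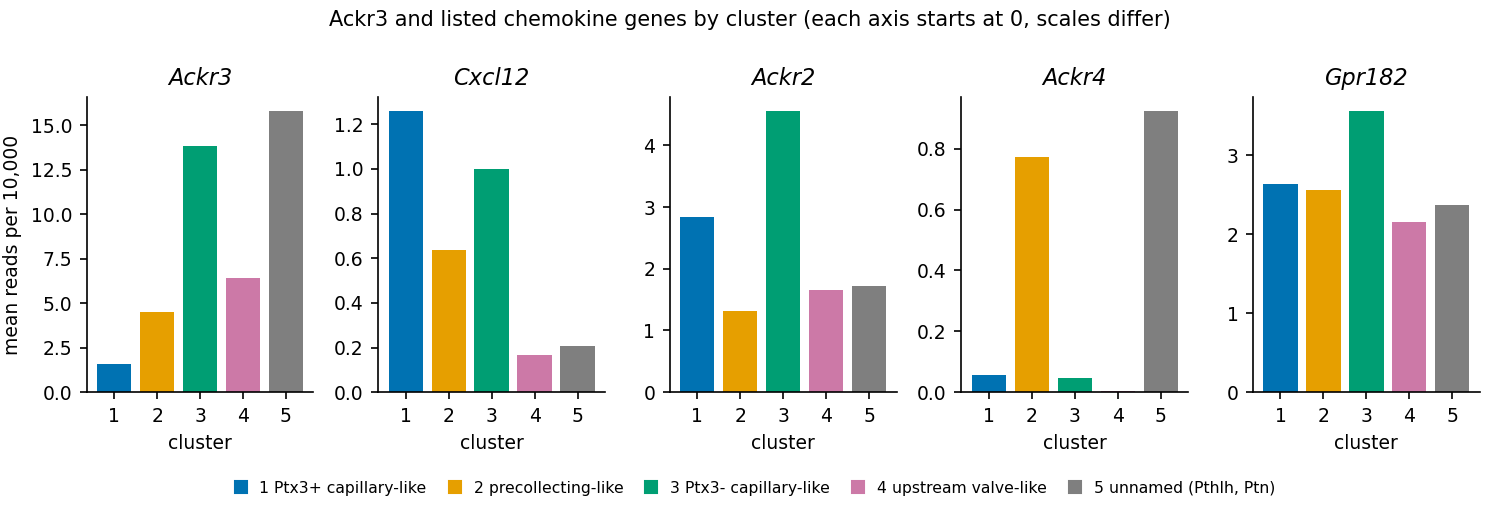
Mean level of Ackr3, Cxcl12, Ackr2, Ackr4 and Gpr182 in reads per 10000 reads in each of the 5 clusters, with axes from 0 that differ in scale. Ackr3 is highest in clusters 3 and 5, Cxcl12 in cluster 1, Ackr2 in cluster 3 and Ackr4 in clusters 2 and 5, while Gpr182 is spread over all 5.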

How the data were processed

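Reads were aligned by the authors with STAR to mm10 and counted per gene with featureCounts (Subread), per the submitters' processing notes and the methods, and cells with under 2000 genes or over 10% mitochondrial reads had been removed. How reads shared by overlapping genes were assigned is not given in the sources used here. The deposited values of 23168 genes fitted the natural log of 1 plus reads per 10000 reads, as the authors normalized them with Seurat 4.1.0: the exponential minus 1 summed to 10000 in every cell, although the methods name base 2. Whole reads were recovered from them (100% of values above 0 within 0.01 reads), which gave each cell's depth. The labels listed 1152 cells, of which 656 were analysed and 496 were not. The members and gene lists were chosen with earlier results of these data known.

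Gene positions came from GENCODE M21 (GRCm38) and promoters from RefSeq, where 5 of the 6 members matched. Cells with at least 20000 reads (568; 88 were shallower) were thinned without replacement. Clustering used Seurat 5.3.0 in R 4.3.3 on 2000 variable genes without the members and pathway genes, with 15 principal components and the lowest resolution (0.7) that gave 5 clusters. Total reads, mitochondrial share, and dissociation and ribosomal scores were regressed out. The dissociation genes themselves were not left out of the variable genes. A cluster took a class name from at least 3 raised markers, with limits chosen once values had been seen, so classes here may differ from the published ones. Doublets were not called because wells received 1 cell each; 4 cells had both Xist and a Y-linked read. Named genes were the members, all genes of short lists, the 2 highest and 1 lowest of long lists by share of cells, and the 5 highest and 2 lowest genes by rho per member. Some genes that these rules name are not reported here. Epas1, Slc2a1, Egln3, Hif1a, Vegfa, Pfkfb3, Ldha, Gnas, Rap1a, Rapgef3, Prkacb and Pde4d were named after their values were seen. Read recovery, thinning, fold and rho steps were tested on simulated data. Intervals used scipy 1.17.1 and Python 3.11.15. Other cell filters, clusterings and scalings were tried.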

Additional observations from a re-analysis of the deposited data

How the results depend on the processing

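No paired analysis was possible because all cells belonged to 1 group and each replicate number named 1 cell. The median share of cells over the 6 genes, 65.9% in all cells, was 69.9% once the 25% of cells poorest in genes had been left out, 74.5% in cells with at least 4000 genes, 28.6% at a natural log value above 1 and 48.4% at 20000 reads per cell. Joint detection of Calcrl and Ramp2, 86.4%, was 94.5%, 97.2%, 30.3% and 70.8% under the same settings. Shares of cells therefore depended on depth and on the threshold. With each block of 96 cell numbers left out in turn, these values ranged from 65.2 to 66.8% and from 85.7 to 87.2%, the Ramp2 share of RAMP level per kb from 99.3 to 99.5%, and the median rho of Adm with the hypoxia genes from 0.0047 to 0.046. The last 2 values moved by less than the spread between blocks under every other setting tried. The number of members past 1.5-fold was 2 to 4 over the settings: Calcrl dropped out at resolution 0.8 and with 1 per 10000 added, and Ramp2 came in at resolution 1.5 and with more variable genes. Among ratios in named clusters, those of Adm in all 4, of Ackr3 in 3 (not upstream valve-like) and of Calcrl in upstream valve-like cells were recomputed, and none of these changed direction. That of Ackr3 ran from 2.51 to 2.99 in Ptx3- capillary-like cells and from 0.0971 to 0.493 in Ptx3+ capillary-like cells, and that of Adm from 1.51 to 2.69 in precollecting-like cells, which 3 settings did not name. Calcrl in upstream valve-like cells passed the limit, at 1.53 to 1.56-fold, under 3 settings. Ratios between genes were also recomputed with other lengths, a choice made after seeing the data: Ackr3 over Ramp2 fell from 1.44 to 0.705 in Ptx3- capillary-like and from 1.41 to 0.688 in unnamed cells with the longest transcript, and Adm over Ackr3 from 1.42 to 0.686 in precollecting-like cells with no length scaling. Rare genes such as Ramp1 and Ramp3 were limited by the number of cells.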
